A study of Mus musculus with 8 samples.

Results

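The genes described here encode the nucleoporins, which build the nuclear pore complex, and the receptors that carry cargo through it. They were taken from the table by their platform gene symbol, which had to be the only symbol of its probe set and to be a Nup, Kpna, Kpnb or Ipo gene with a number, or Pom121, Ndc1, Seh1l, Aaas, Rae1, Ranbp2 or Xpo1. No measured value entered this rule, but the members were chosen with earlier results of these data known. The rule gave 104 probe sets for 40 genes, of 45037 probe sets and 18193 genes in all. Of the 40 genes, 25 encode nucleoporins, 14 encode import receptors, and 1, Xpo1, encodes an export receptor. Tpr was also asked for by name, and 0 probe sets carried that single symbol.

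The RNA was from the mouse embryonic fibroblast line NIH3T3, transduced with mVenus-p27K-, a fluorescent fusion of a mutant of the CDK inhibitor p27, and mCherry-hCdt1(30/120), a fluorescent fusion of a fragment of the licensing factor Cdt1. All cells were deprived of serum and then held in 10% serum for 5 h, and were separated by flow cytometry into mVenus(+)/mCherry(+) cells, called G0, and mVenus(-)/mCherry(+) cells, called G1. Each group was measured on 4 Affymetrix arrays, but the labels name no separate cultures for the replicates. The p-values then capture the spread among these samples alone, and that spread may be technical. Whether the transduced line was 1 clone is not given either.

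Nuclear pores are built from rings of nucleoporins. The Y complex forms the outer rings, the inner ring lines the pore, membrane nucleoporins anchor it in the nuclear envelope, and flexible nucleoporins fill the channel and extend to the cytoplasm and the nucleus. Importin beta proteins carry cargo inward, alone or through an importin alpha adaptor, and release it when they bind the GTPase Ran in its GTP form. Pores are assembled into the growing nucleus in interphase and again after mitosis.

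Each value is a log2 expression value (the base was taken as 2) from which the median of that probe set over the 8 arrays has been removed. A difference between groups can be read from it, an absolute level cannot. A difference is G1 minus G0. On the arrays G0 replicate 3 and G1 replicate 4 the 24 poly-A spike-in probe sets, which read bacterial transcripts added before labelling, had medians of −7.12 and −6.40, against −0.14 to 0.62 on the other 6 arrays. The labels put replicate 4 of both groups in a second labelling batch (kit protocol revision 3 in place of 8). Labels and spike-ins thus agree on G1 replicate 4 and differ on G0 replicates 3 and 4, and which of those G0 arrays belongs to the second batch is not settled, nor whether their titles were exchanged. Readings given for G0 replicates 3 and 4 carry the names of the titles. The limma fit used the labelled batch as covariate, and a fit with the spike-in batch in its place is given beside it. The log2 differences of both fits are the same and their errors differ. Levels that would show fibroblast identity cannot be read from centred values. The fibroblast, leukocyte, epithelium and endothelium lists had median differences of −0.30, 0.08, 0.40 and 0.22 over 10, 7, 7 and 6 measured genes. Restricted to the arrays that carry spike-ins, the medians were −0.39, 0.20, 0.06 and 0.39. At an unadjusted p under 0.05 (limma, labelled batch), 1 fibroblast and 3 leukocyte genes were lower, where 3.74% of all genes were. In the same fit 2 endothelium genes were higher, where 4.33% of all genes were. After adjustment 0 genes of these lists passed, where 0.522% of all genes did. With the spike-in batch, at an unadjusted p under 0.05 (limma), 3 fibroblast and 3 leukocyte genes were lower, where 6.37% of all genes were. There 2 endothelium genes were higher, where 6.04% were. On the 6 arrays that carry spike-ins 3 fibroblast genes and 1 leukocyte gene were lower (4.39% of all genes), and 1 endothelium gene was higher (4.61%). The part of these lists in the members' values was not tested. With no levels it cannot be seen whether any of their markers was at background.

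The median over these genes was higher on every G1 array than on every G0 array, and the nucleoporins of the outer rings had the class median farthest above 0. No single gene passed the test with the labelled batch. None of the 40 differed at an adjusted p under 0.05 (limma, Benjamini-Hochberg over all probe sets), where 0.522% of all genes did, 0.5% higher and 0.022% lower. At an unadjusted p under 0.05, 13 of the 40 were higher in G1, where 4.33% of all genes were, and 0 were lower, where 3.74% were. Of the 13, 11 were among the 25 nucleoporin genes and 2 among the 14 import receptor genes. In 14 of the 40, every G1 array read above every G0 array, and in 0 every G1 array read below. Over all genes these shares were 3.79% and 3.28%. The median difference over the 40 genes was 0.36, a 1.28-fold higher value in G1, beside −0.06 over all genes. The difference was positive in 33 of the 40 (Ipo8, at 0.00, is not among them) and in 44.7% of all genes. With the spike-in batch as covariate 2 of the 40 passed, both higher (0.929% of all genes were higher and 0.077% lower). At an unadjusted p under 0.05 that fit had 17 of the 40 higher and 0 lower, beside 6.04% and 6.37% of all genes. Restricted to the 6 arrays that carry spike-ins, 0 passed (0.165% of all genes were higher), 14 had an unadjusted p under 0.05, all higher, beside 4.61% of all genes higher and 4.39% lower, and the median difference was 0.30 beside −0.07 over all genes.

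**Figure D1:**
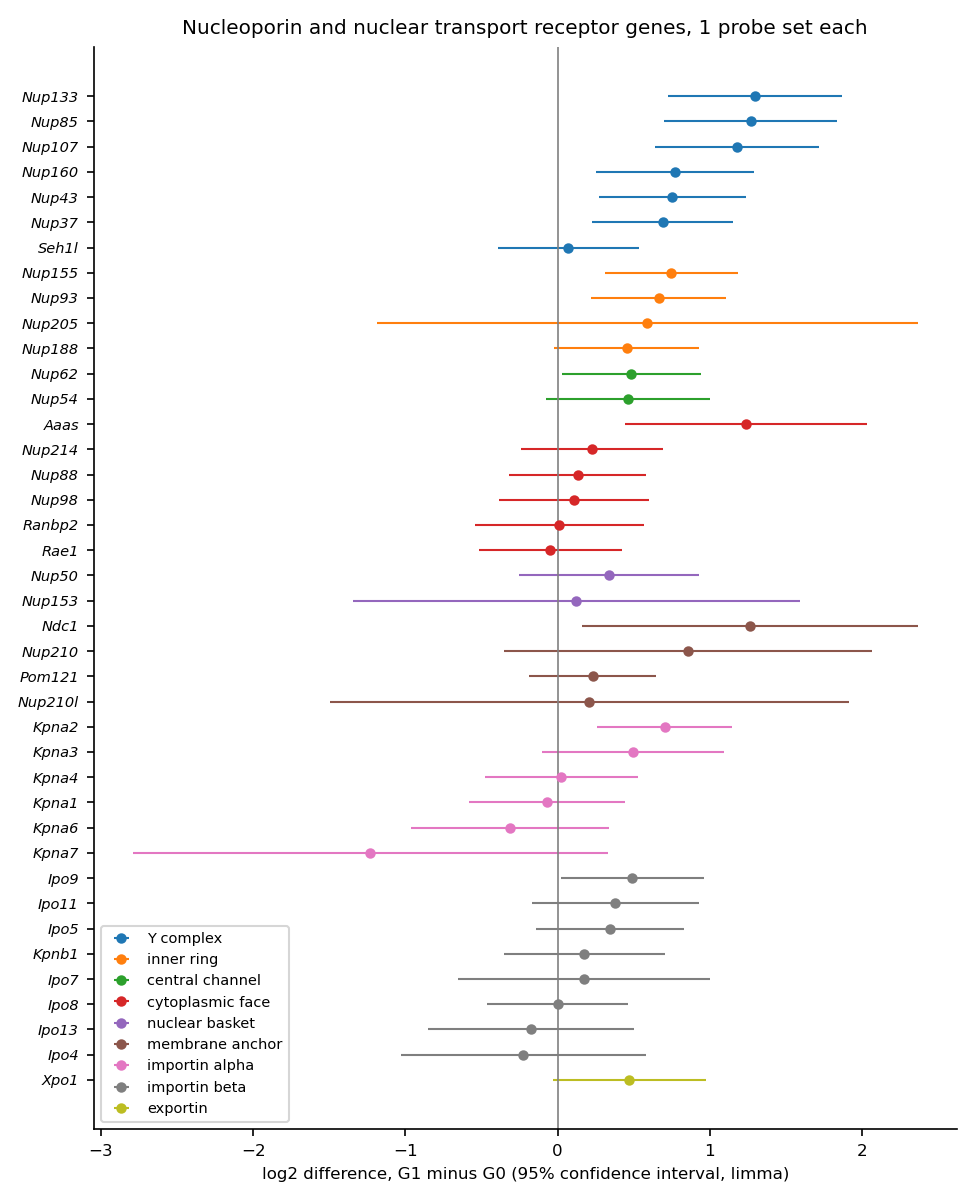
Log2 difference, G1 minus G0 (horizontal axis), for each of the 40 genes (1 probe set per gene), with the 95% confidence interval of the limma fit with the labelled batch (4 arrays per group). Colours mark classes. Of the 7 Y complex genes, 6 have intervals above 0, and the importin alpha and importin beta genes lie on both sides of 0.

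Markers of cycling cells moved with the members. The list of S phase genes had a median difference of 1.30 over 15 genes. For the list of G2 and mitosis genes it was 2.80 over 17 genes. At an adjusted p under 0.05 (limma), 3 of the former and 13 of the latter were higher, where 0.5% of all genes were. On the G0 arrays the S phase median lay between −0.98 and −0.40 and the G2 and mitosis median between −1.73 and −1.15. On the G1 arrays they lay between 0.43 and 0.79 and between 1.12 and 1.75. The members' median lay between −0.26 and −0.16 on G0 arrays and between 0.16 and 0.24 on G1 arrays. In bulk samples more cells of a cycling kind and more RNA per cell cannot be told apart. The part of cycling cells in the members' values was not tested.

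The Y complex is the scaffold of the outer rings. Its 7 genes had a median difference of 0.77 (1.71-fold), and 6 of the 7, Nup133, Nup85, Nup107, Nup160, Nup43 and Nup37, were higher in G1 at an unadjusted p under 0.05 with groups that did not overlap, where 4.33% of all genes met the first condition and 3.79% the second. None of the 7 passed over all probe sets with the labelled batch. Nup133, which forms the stem's end, read −0.33, −0.70, −0.86 and −0.66 on G0 replicates 1 to 4 and 1.13, 0.70, 0.47 and 0.33 on G1 replicates 1 to 4. Every G1 array stood above every G0 array. The difference was 1.30, or 2.46-fold (SE 0.24, adjusted p = 0.126, limma), and it passed once the spike-in batch was the covariate (SE 0.19, adjusted p = 0.0434). Of its 6 probe sets all differed upward, by 0.35 to 1.35, and 4 had groups that did not overlap.

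Nup107, the stem partner of Nup133, read −0.38, −0.89, −0.81 and −0.45 in G0 and 0.77, 0.47, 0.55 and 0.38 in G1. It was 2.26-fold higher (difference 1.18, SE 0.23, adjusted p = 0.146, limma; 0.0462 with the spike-in batch). Nup107 has only 1 probe set here. Nup85, in the short arm, read −0.37, −0.92, −0.93 and −0.65 in G0 and 0.82, 0.37, 0.52 and 0.51 in G1. That is 2.41-fold higher (difference 1.27, SE 0.24, adjusted p = 0.136, limma; 0.0509 with the spike-in batch), and its second probe set differed by 1.09. For these genes too the groups did not overlap. Neither Nup133 nor Nup107 passed once any array was left out of the fit with the spike-in batch (adjusted p from 0.0779 and 0.0762 upward over all fits without 1 array), nor on the 6 arrays that carry spike-ins, where the differences were 1.33 and 1.17 (adjusted p = 0.182 and 0.203).

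Nup160, Nup43 and Nup37 had smaller differences, with groups that did not overlap. Nup160 was 1.71-fold higher (0.77, SE 0.22, adjusted p = 0.417), Nup43 1.69-fold (0.75, SE 0.21, adjusted p = 0.383) and Nup37 1.61-fold (0.69, SE 0.20, adjusted p = 0.415, all limma). Nup160 lay between −0.70 and −0.17 on the G0 arrays and between 0.17 and 0.42 on the G1 arrays. The second Nup43 probe set differed by 0.87, again without overlap. Seh1l encodes a Y complex subunit that is also part of the GATOR2 complex of amino acid signalling. It read −0.06, 0.20, −0.17 and −0.07 in G0 and 0.06, 0.19, 0.19 and −0.25 in G1, so the groups overlapped, and the difference was 0.07 (SE 0.20, 95% confidence interval −0.39 to 0.53, adjusted p = 0.981, limma). Its 7 probe sets differed by −0.47 to 0.07, 1 positive and 6 negative, and the groups overlapped on each. Of the other Y complex genes in the list of further transport genes, Sec13, which also serves in COPII vesicle coats, differed by −0.16 (adjusted p = 0.934, limma) and Ahctf1 (ELYS), which brings the Y complex to chromatin, by 0.29 (adjusted p = 0.845).

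**Figure D2:**
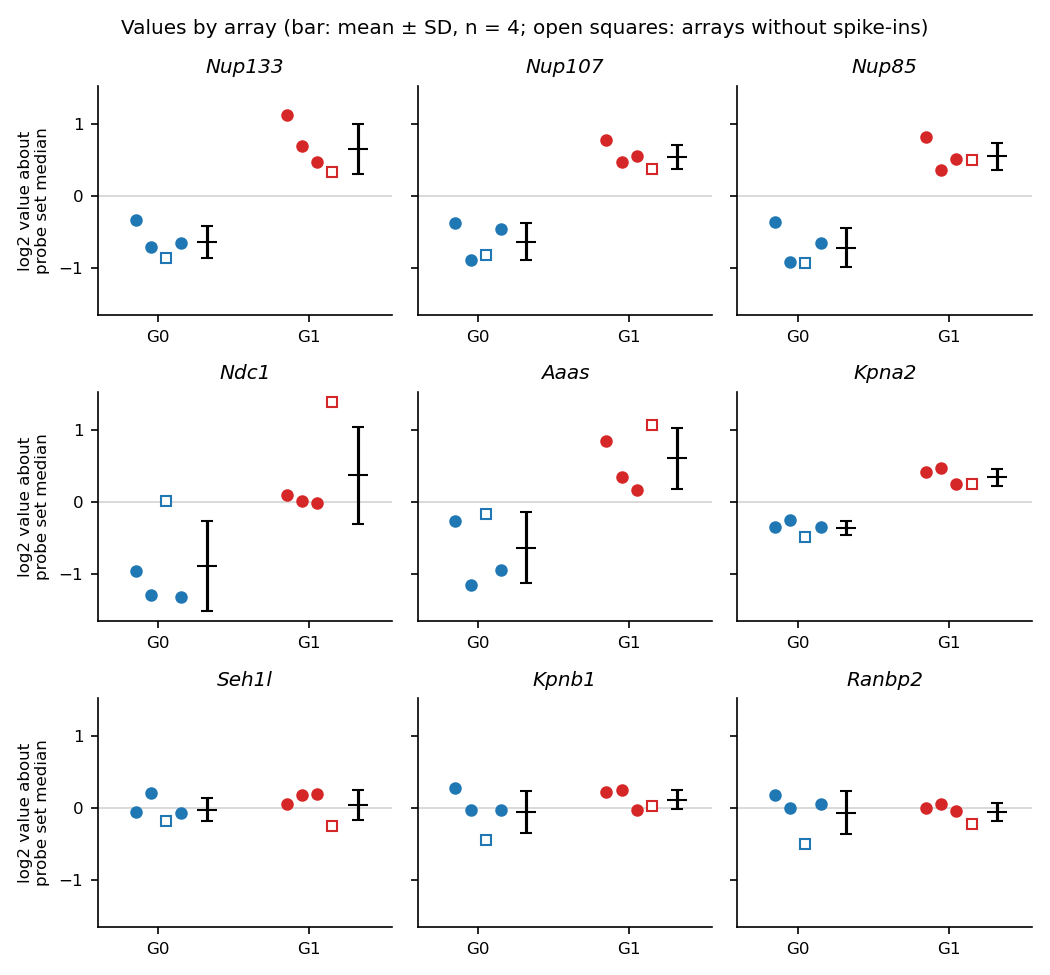
Log2 value about the probe set median (vertical axis) on each of the 4 G0 and 4 G1 arrays for 9 genes, with mean ± SD (n = 4) and open squares for the arrays without spike-ins. Nup133, Nup107, Nup85, Aaas and Kpna2 show groups without overlap, the chosen Ndc1 probe set overlaps at its G0 open square, and Seh1l, Kpnb1 and Ranbp2 overlap.

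The promoters of Nup107 and Nup133 are shown because these genes passed in the fit with the spike-in batch. RefSeq promoters (GRCm38.p6, 250 bases before to 50 after the start) were found for 33 of the 40 genes and not for Nup85, Nup43, Seh1l, Nup210l, Kpna3, Kpna6 and Kpna1. They were searched on both strands for TTTGAA and TTTAAA, the letters of the cell cycle homology region bound by the DREAM and MuvB complexes, for CCAAT, the core of the NF-Y motif, and for TTCCCGCC and TTTCCCGC, which are E2F motifs that share letters with each other. The window is printed up to 20 bases past the start, with matches in capitals.
Nup107, chr10:117792686-117792955, minus strand: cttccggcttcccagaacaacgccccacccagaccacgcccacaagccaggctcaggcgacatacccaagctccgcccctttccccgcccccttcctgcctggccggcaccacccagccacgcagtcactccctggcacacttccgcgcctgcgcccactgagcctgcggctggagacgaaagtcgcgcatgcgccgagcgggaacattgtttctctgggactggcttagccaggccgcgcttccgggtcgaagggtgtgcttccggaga
Nup133, chr8:123949246-123949515, minus strand: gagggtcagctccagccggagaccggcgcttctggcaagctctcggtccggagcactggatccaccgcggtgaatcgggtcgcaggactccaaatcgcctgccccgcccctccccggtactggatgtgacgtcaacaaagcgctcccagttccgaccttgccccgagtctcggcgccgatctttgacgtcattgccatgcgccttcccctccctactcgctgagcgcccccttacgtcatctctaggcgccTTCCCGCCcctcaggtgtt
The Nup133 window held TTCCCGCC beginning 1 base after the start, and the Nup107 window held none of the letters searched. A TTCCCGCC or TTTCCCGC match occurred in 2 of the 33 genes, Nup133 and Nup210 (6.06%), and in 2.73% of 32851 promoters of that length. TTTGAA occurred in 24.2% of the members and 17.9% of all promoters, TTTAAA in 9.09% and 13.2%, and CCAAT in 48.5% and 37.4%. For each member gene only 1 promoter was searched, the first listed where there were several. The shares of all promoters count every promoter, so a gene can enter them more than once. A match describes the letters only and is not a site of binding.

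Of the 4 membrane nucleoporins Ndc1 was the 1 with an unadjusted p under 0.05. It spans the pore membrane and holds Aaas (ALADIN) at the pore. Its probe set chosen for the count read −0.95, −1.29, 0.01 and −1.32 in G0 and 0.10, 0.02, −0.01 and 1.38 in G1. On both arrays without spike-ins it read higher than on the rest of their group, and the groups overlapped. The difference was 1.26 (2.40-fold, SE 0.47, adjusted p = 0.626, limma; 0.0638 with the spike-in batch, where SE was 0.21). Its 2 other probe sets differed by 1.15 and 1.13, 2.22-fold and 2.18-fold, with groups that did not overlap. They did not pass with the labelled batch (adjusted p = 0.166 and 0.115, limma) and passed with the spike-in batch (adjusted p = 0.0478 and 0.0381), but not on the 6 arrays that carry spike-ins (adjusted p = 0.189 and 0.205). The Ndc1 promoter is shown for these probe sets, a choice made after their values were seen. It held TTTGAA, in capitals, 24 bases before the start.
Ndc1, chr4:107367797-107368066, plus strand: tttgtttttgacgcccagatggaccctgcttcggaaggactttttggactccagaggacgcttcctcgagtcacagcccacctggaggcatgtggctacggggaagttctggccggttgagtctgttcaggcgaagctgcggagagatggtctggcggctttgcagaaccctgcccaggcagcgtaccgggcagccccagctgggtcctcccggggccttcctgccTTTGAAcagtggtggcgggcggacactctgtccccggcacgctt

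Aaas, the partner of Ndc1 on the cytoplasmic face, read −0.27, −1.15, −0.17 and −0.94 in G0 and 0.84, 0.35, 0.17 and 1.07 in G1. The groups did not overlap, but the arrays of each group were far apart, and the difference of 1.24 (2.36-fold, SE 0.34) had an adjusted p of 0.383 (limma; 0.123 with the spike-in batch). It was 0.98 in the first labelled batch and 2.02 in the second, and 1.24 both among the arrays with spike-ins and between those without. Nup210, a membrane glycoprotein, read −1.12, 0.73, −1.16 and −1.31 in G0 and 0.20, −0.20, 0.20 and 0.37 in G1 and differed by 0.86 (SE 0.52, adjusted p = 0.815, limma). Its G0 replicate 2 stood above every G1 array. Pom121, which acts early in interphase pore assembly, differed by 0.23 with groups that did not overlap (adjusted p = 0.872, limma). Its nearest arrays read −0.002 (G0 replicate 1) and 0.002 (G1 replicate 4). The second Pom121 probe set differed by 0.26 with overlapping groups. Nup210l, a relative of Nup210, read −0.25, −0.80, 0.02 and 0.00 in G0 and −2.14, 1.36, 0.58 and −0.00 in G1, and its difference of 0.21 has an SE of 0.73 (adjusted p = 0.984).

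The inner ring holds the scaffold against the curved membrane. The differences of its 4 measured genes were all positive (median 0.63). Nup155, which contacts the membrane, read −0.33, −0.55, −0.31 and −0.18 in G0 and 0.18, 0.34, 0.48 and 0.60 in G1 (1.68-fold, difference 0.75, SE 0.19, adjusted p = 0.311, limma). Nup93, a linker of the ring, read −0.28, −0.53, −0.34 and −0.26 in G0 and 0.34, 0.28, 0.36 and 0.26 in G1 (1.58-fold, difference 0.66, SE 0.19, adjusted p = 0.414). Both genes had groups that did not overlap. The 2 other Nup155 probe sets differed by 0.06 and 0.61 with overlapping groups, and the mean of its 3 probe sets by 0.47 (adjusted p = 0.75). Nup188, a large scaffold protein of the ring, read −0.46, −0.31, −0.59 and 0.24 in G0 and −0.02, 0.02, 0.22 and 0.47 in G1, with overlapping groups (difference 0.45, SE 0.20, adjusted p = 0.712). It differed by −0.26 on its second probe set, by 0.095 in the mean of both, and by 0.25 on the arrays that carry spike-ins. The Nup205 probe set chosen for the count had a difference of 0.59 and varied widely, with SDs of 1.20 (G0) and 1.18 (G1). Its second probe set differed by 0.60 with groups that did not overlap (adjusted p = 0.544).

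In the central channel, the FG nucleoporin Nup62, whose repeats bind transport receptors, read −0.50, −0.12, −0.17 and −0.22 in G0 and 0.12, 0.22, 0.26 and 0.33 in G1, without overlap. It was 1.40-fold higher (difference 0.48, SE 0.19, adjusted p = 0.665, limma), and its 5 probe sets all differed upward, by 0.15 to 0.57. Its partner Nup54 read −0.25, −0.16, −0.63 and 0.03 in G0 and 0.23, 0.34, 0.28 and −0.03 in G1, with overlapping groups (difference 0.46, SE 0.23, adjusted p = 0.759, limma). The mean of its probe sets differed by 0.30. Of the 5 Nup54 probe sets 4 were positive, and 1 differed by −0.23.

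For the genes of the cytoplasmic face, Aaas aside, and of the nuclear basket the groups overlapped on the probe sets chosen. The filament protein Ranbp2, a SUMO ligase, read 0.18, −0.00, −0.50 and 0.06 in G0 and 0.00, 0.05, −0.04 and −0.23 in G1, a difference of 0.01 (95% confidence interval −0.54 to 0.57). Nup214, the FG nucleoporin that docks export complexes, read 0.09, −0.27, −0.08 and −0.22 in G0 and 0.25, −0.05, 0.05 and 0.18 in G1 (difference 0.23, SE 0.20, adjusted p = 0.892, limma). Rae1, an mRNA export factor that binds Nup98, read −0.27, −0.03, 0.11 and 0.20 in G0 and −0.01, −0.27, 0.01 and 0.09 in G1 (difference −0.05, SE 0.20, adjusted p = 0.988) and was negative on all 3 of its probe sets. Nup88, the partner of Nup214, differed by 0.13 (95% confidence interval −0.32 to 0.58) and Nup98 by 0.11 (−0.38 to 0.60).

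The nuclear basket faces the nucleoplasm. Nup50, a cofactor of importin alpha and beta there, read 0.16, −0.58, −0.36 and −0.09 in G0 and 0.37, −0.19, 0.09 and 0.22 in G1 (difference 0.34, SE 0.25, adjusted p = 0.866, limma), and another probe set differed by 0.50 without overlap (adjusted p = 0.677). Nup153, an FG nucleoporin of the basket, read −0.04, 0.04, −1.43 and 0.69 in G0 and 0.74, −0.50, 0.73 and −1.22 in G1, a difference of 0.12 (SE 0.63, adjusted p = 0.990). Its other 2 probe sets differed by 0.39 and 0.30, the first without overlap.

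**Figure D3:**
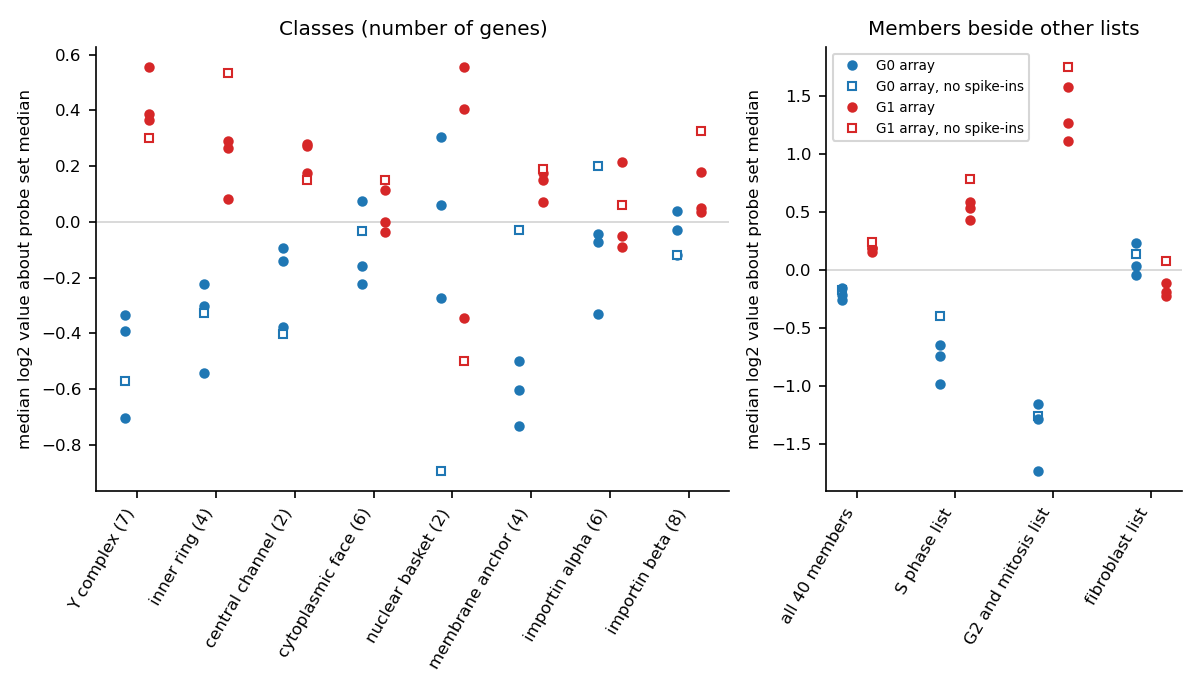
Median log2 value over the genes of each class (left) and of all 40 members and 3 other gene lists (right) on each array, blue for G0 and red for G1, with open squares for the arrays without spike-ins. The Y complex medians lie between −0.70 and −0.33 on G0 arrays and between 0.30 and 0.55 on G1 arrays, and those of importin alpha overlap between groups.

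The importin alpha family, adaptors that bind nuclear localisation signals, had no common direction. Of its 6 genes 3 had a positive difference and 3 a negative one, with a median of −0.02. Kpna2 (importin alpha 1), the adaptor most tied to proliferation, read −0.35, −0.24, −0.49 and −0.35 in G0 and 0.41, 0.48, 0.24 and 0.25 in G1. The arrays of each group lay close together and the groups did not overlap. The difference was 0.70, or 1.63-fold (SE 0.19, adjusted p = 0.370, limma; 0.0957 with the spike-in batch). The other family members had overlapping groups on the probe sets chosen. Kpna3 read −0.47, −0.39, 0.16 and −0.40 in G0 and 0.11, 0.28, −0.11 and 0.60 in G1 and differed by 0.50 (SE 0.26, adjusted p = 0.764, limma), and by 0.52 and, without overlap, 0.45 on its other 2 probe sets. At an unadjusted p under 0.05, Kpna3 was called in the fit with the spike-in batch and not in that with the labelled batch.

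The other importin alpha genes had differences with intervals that held 0. Kpna4 read 0.45, −0.02, −0.07 and −0.01 in G0 and 0.39, 0.09, 0.01 and −0.05 in G1 (difference 0.03, SE 0.21, 95% confidence interval −0.47 to 0.53, adjusted p = 0.994, limma). Kpna1 read 0.07, −0.07, 0.25 and −0.13 in G0 and −0.31, 0.15, −0.17 and 0.17 in G1 (difference −0.07, SE 0.22, 95% confidence interval −0.58 to 0.45, adjusted p = 0.984), and was positive on 1 of its 5 probe sets, by 0.33. Kpna6 read −0.35, 0.26, 0.26 and 0.35 in G0 and −0.29, 0.30, −0.26 and −0.49 in G1 (difference −0.31, SE 0.28, 95% confidence interval −0.96 to 0.34, adjusted p = 0.894). Kpna6 was negative on its second probe set too, and its difference was −0.17 on the arrays that carry spike-ins. Kpna7, known from oocytes and early embryos, read −0.31, 0.12, 0.45 and 0.38 in G0 and −1.35, −0.12, 0.15 and −2.97 in G1. Its difference of −1.23 (SE 0.67, adjusted p = 0.780, limma) has 2 of the G1 arrays far below the rest, and was −0.50 on the 6 arrays that carry spike-ins. The Kpna2 promoter is shown as that of the only family member whose chosen probe set had an unadjusted p under 0.05 with the labelled batch, and was again chosen after its values were seen.
Kpna2, chr11:106999506-106999775, minus strand: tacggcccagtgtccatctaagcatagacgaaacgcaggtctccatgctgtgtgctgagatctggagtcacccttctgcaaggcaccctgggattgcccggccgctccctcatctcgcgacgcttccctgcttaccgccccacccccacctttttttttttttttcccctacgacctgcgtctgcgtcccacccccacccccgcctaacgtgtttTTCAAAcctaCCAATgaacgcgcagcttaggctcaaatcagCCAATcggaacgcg
It held TTTGAA on the opposite strand 35 bases before the start, and CCAAT 25 bases before and 6 bases after it. TTTAAA, 34 bases after the start, lies past the stretch printed.

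Kpnb1, importin beta 1, which partners the alpha adaptors, read 0.27, −0.03, −0.45 and −0.03 in G0 and 0.22, 0.25, −0.02 and 0.02 in G1. Its difference was 0.17 (SE 0.23, 95% confidence interval −0.35 to 0.70, adjusted p = 0.946, limma), and its 4 probe sets differed by 0.05 to 0.27. Of the 8 importin beta genes 1, Ipo9, an importer of histones and actin, was higher at an unadjusted p under 0.05 with the labelled batch (4.33% of all genes) and 2, Ipo9 and Ipo5, with the spike-in batch (6.04%). Ipo9 read −0.19, −0.43, −0.08 and −0.31 in G0 and 0.17, 0.08, 0.23 and 0.48 in G1, without overlap (1.41-fold, difference 0.49, SE 0.20, adjusted p = 0.670, limma; 0.241 with the spike-in batch). Ipo5, which imports ribosomal proteins, read −0.27, −0.17, 0.06 and −0.28 in G0 and −0.06, 0.17, 0.19 and 0.42 in G1, with groups that overlapped. It differed by 0.34 (SE 0.21, adjusted p = 0.815 in the labelled and 0.406 in the spike-in fit, limma) and by 0.43 on a second probe set whose groups did not overlap. A further Ipo5 probe set differed by −1.36 (SE 0.55, adjusted p = 0.669), and had SDs of 1.07 (G0) and 1.27 (G1).

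The other importin beta genes had overlapping groups. Ipo4, another importer of ribosomal proteins and histones, read −0.01, 0.29, −0.62 and 0.43 in G0 and −0.37, 0.01, 0.26 and −0.70 in G1 (difference −0.22, SE 0.34, adjusted p = 0.957, limma). Ipo13 differed by −0.18, Ipo8 by 0.00, Ipo7 by 0.17 and Ipo11 by 0.38. Probe sets of these genes did not all have 1 sign: the second Ipo11 probe set differed by −1.82 (SE 1.30) and the second Ipo4 probe set by 0.02, and the 2 others of Ipo8 by 0.20 and −0.54. Xpo1, the main exportin for proteins, read −0.00, −0.39, −0.23 and −0.15 in G0 and 0.57, 0.22, 0.00 and 0.32 in G1. It was 1.39-fold higher (difference 0.47, SE 0.21, adjusted p = 0.714, limma), and its nearest G0 and G1 arrays both round to 0.00. Its second probe set differed by 0.59 without overlap.

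**Figure D4:**
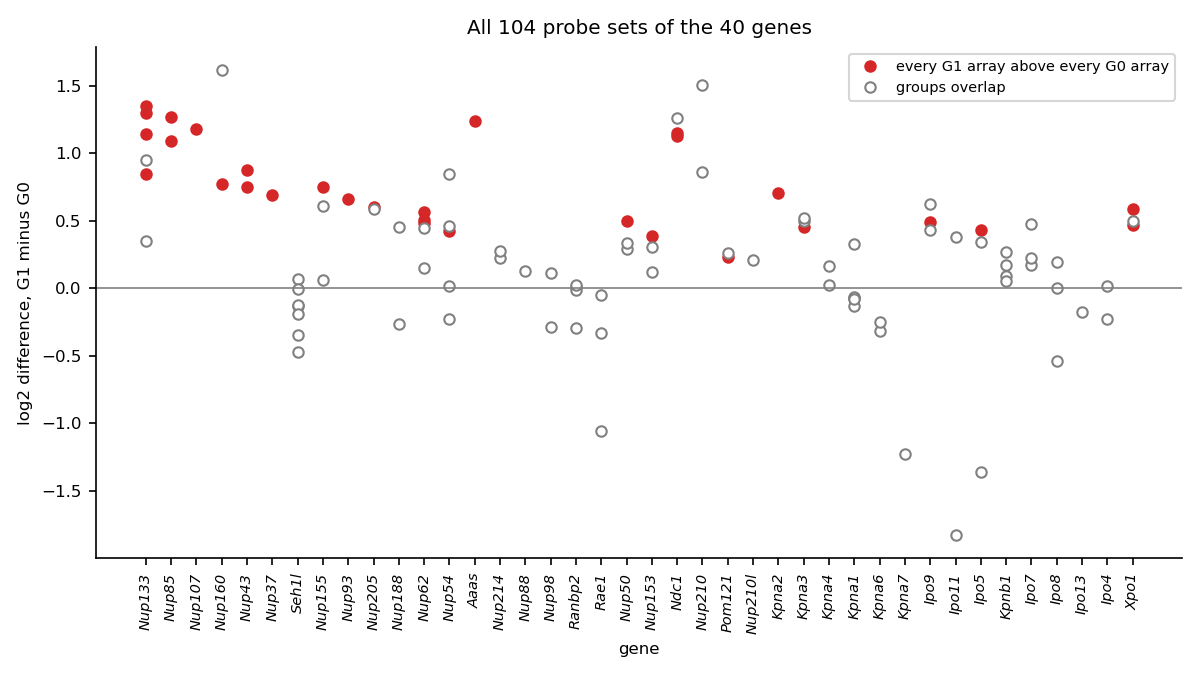
Log2 difference, G1 minus G0 (vertical axis), of each of the 104 probe sets of the 40 genes (horizontal axis, in class order), filled where every G1 array read above every G0 array. The 30 filled points belong to 21 genes, and 0 probe sets were separated in the lower direction.

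Over all 104 probe sets 77 differences were positive and 27 negative, and at an unadjusted p under 0.05 26 were higher and 1 was lower, where 3.71% and 3.59% of all probe sets were. In 30 of the 104 every G1 array read above every G0 array (3.16% of all probe sets), and in 0 the reverse held (2.90%). Of 31 genes with several probe sets, 21 had 1 sign on all of them and 10 did not. Probe sets of 1 gene share their samples and part of their transcript, so they are not separate support. None of the 104 had a lowest value shared by several arrays. Centred values cannot show whether any of these probe sets was at background.

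The arrays without spike-ins read high or low together in many of these probe sets. In 23 of the 104 both arrays were the highest pair of the 8 and in 12 the lowest pair, 22.1% and 11.5%, beside 15.9% and 8.38% of all probe sets. The deviations of these arrays from the rest of their own group had a Pearson r of 0.55 and a Spearman rho of 0.66 over the 104 probe sets. Over all probe sets these were 0.31 and 0.37. The probe sets share the same 8 arrays, so this is a description. Probe sets of 1 gene could part ways there. For Kpna4, 1 probe set read 1.57 and 2.31 above the other arrays of its group and the other −0.21 and −0.21. One of these arrays is in G0 and the other in G1. For the 40 genes the median difference was 0.30 among the arrays that carry spike-ins and 0.47 between those that do not. Within the labelled batches it was 0.34 and 0.46.

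**Figure D5:**
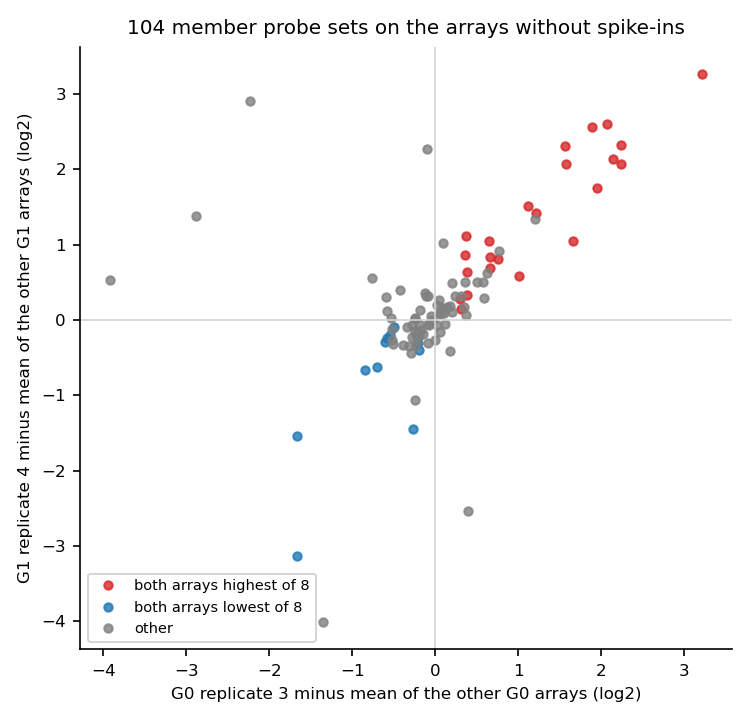
Deviation of G0 replicate 3 (horizontal axis) and of G1 replicate 4 (vertical axis) from the mean of the other arrays with spike-ins in their own group, in log2 units, for the 104 probe sets. Red points are probe sets where these arrays read highest of the 8 and blue points where they read lowest. The points scatter along the rising diagonal (r = 0.55, beside 0.31 over all probe sets).

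Of 36 further genes of nuclear transport (the Ran cycle, other exportins and transportins, mRNA export and the remaining pore subunits), 32 were measured. None passed in limma with either batch. By unadjusted p under 0.05, 4 were higher and 1 was lower (4.33% and 3.74% of all genes), and the median difference was 0.09. Cse1l, which returns importin alpha to the cytoplasm, read −0.12, −0.41, −0.46 and −0.42 in G0 and 0.49, 0.36, 0.12 and 0.38 in G1, a 1.61-fold higher value without overlap (difference 0.69, SE 0.20, adjusted p = 0.432, limma). Ranbp1, a cofactor of Ran GTP hydrolysis, read −0.26, −0.16, −0.21 and −0.32 in G0 and 0.33, 0.29, 0.16 and 0.32 in G1 and was 1.42-fold higher without overlap (difference 0.51, SE 0.18, adjusted p = 0.585). Ran itself differed by 0.08 and Rangap1, its GTPase activator, by 0.05. Mad1l1, a spindle checkpoint protein that docks at the nuclear basket, read 1.85, 1.38, 2.30 and −0.24 in G0 and 0.24, −0.94, −1.01 and −0.31 in G1, with overlapping groups. It differed by −1.82 (SE 0.56, adjusted p = 0.467, limma), by 0.07 on its second probe set and by −0.88 in the mean of both.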

How the data were processed

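RNA of 8 arrays, 4 G0 and 4 G1, was grouped by title. The values are the authors' deposited log2 expression values, 1 column per array, and the submitters' processing notes name MAS5. The steps that took logs and centred each probe set are not given in the sources used here, nor is the log base. The largest absolute probe set median was 5e-07. Dim or saturated probe sets cannot be recognised, and the number of arrays limits precision.

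Control probe sets (64) were dropped. Of the 45037 kept, 34945 had 1 gene symbol, 932 several and 9160 none. Symbols were updated by Entrez identifier for 34741 (GRCm38.p6 gene table). A gene was represented by 1 probe set, in the suffix order _at, _a_at, _s_at, _x_at and then by lowest number, with no level filter. Differences were tested two-sided with limma 3.58.1 in R 4.3.3 (lmFit, eBayes with trend, labelled batch as covariate, 5 residual degrees of freedom) and adjusted by Benjamini-Hochberg over 45037 probe sets (threshold 0.05). The fit was tested on simulated data with independent noise only, without the deviations that the arrays lacking spike-ins share. Of the members, the text gives array values, difference, SE and adjusted p for those that passed in either batch fit, for the 2 with the lowest p and the 1 with the lowest difference in each class, for all of importin alpha, and for Kpnb1. Of the further transport genes it gives those past the threshold and the 3 with the lowest p. Others were chosen after their values were seen. The members and lists were chosen with earlier results of these data known. Alternatives changed the batch term, arrays, scaling, variance model, probe set choice and ties.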

Additional observations from a re-analysis of the deposited data

Results flagged for a closer look

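Within a group of 4 arrays, 6 of 62 sets of values had 1 array far from the other 3 (Dixon's test at the 95% level). Chance gives about 1 in 20. In Ndc1 the array G1 replicate 4 read 1.38, with the next at 0.10, and in Kpna3 the array G0 replicate 3 read 0.16, with the next at −0.39. Both arrays lack spike-ins. In Nup210 the array G0 replicate 2 read 0.73, with the next at −1.12. The array G0 replicate 1 stood apart in Kpna4 (0.45, next −0.01), Kpna6 (−0.35, next 0.26) and Cse1l (−0.12, next −0.41).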

How the results depend on the processing

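The count of members past the threshold was 0 with the labelled batch (limma, 13 higher at an unadjusted p under 0.05) and 2 with the spike-in batch. It was 0 in the 10 other settings with all arrays or without a batch, quantile normalization and array weights among them, and in each fit without 1 array, under either batch term (8 arrays left out in turn). The fits with the spike-in batch and without 1 array were chosen after seeing the data. The correlations of deviations were 0.07 and 0.11 for arrays with the titled numbers 1 and 2, each the highest of its G0 array. For the numbers 3 and 4 they were −0.14 and −0.14. Across these numbers they were 0.31 for G0 replicate 3 with G1 replicate 4 and 0.10 for G0 replicate 4 with G1 replicate 3. With the replicate block (limma) 0 members passed, 10 had an unadjusted p under 0.05 (all higher), and 0 of all genes passed. That block followed the titled numbers, and a block with G0 replicates 3 and 4 exchanged was not run.

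The median difference of the members moved to 0.30 on the 6 arrays with spike-ins, 0.41 with quantile normalization and 0.28 when the probe sets of a gene were averaged, and ran from 0.30 to 0.43 without 1 array. The median over all genes stayed between −0.11 and −0.02 in every setting. Some genes changed sign. Ipo4 was 0.079 in labelling batch 1 alone, Rae1 0.0061 and Kpna4 −0.021 with array weights, and Seh1l −0.17 and Ipo5 −0.19 when probe sets were averaged. Without 1 array, Seh1l ran from −0.0016 to 0.16, Rae1 from −0.13 to 0.037, Nup153 from −0.34 to 0.80, Nup210l from −0.31 to 0.93, Ipo4 from −0.46 to 0.079, Kpna4 from −0.059 to 0.14 and Kpna1 from −0.19 to 0.023. The cause was not tested. The other 20 of the 28 members that the naming rule chose kept their direction in every setting run.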
